A study of Mus musculus with 3 samples.

Results

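The genes described here are 44 genes of DNA replication and S phase, chosen by symbol from lists of the replication machinery and matched to 44 of the 29267 gene columns of the count tables. They were followed in single-cell transcriptomes of mouse embryonic stem cells derived from blastocysts. All cells were of the C57BL/6J strain and carried Mll1fl/fl with Cre-ER TM, a background in which a tamoxifen-inducible Cre can delete the loxP-flanked Mll1 gene (also called Kmt2a), and they formed 3 cell types: the Mll1fl/fl control, Mll1-/- cells and cells under Mll1 inhibition. The inhibitor, its dose, the times of treatment and the deleted exons are not known from the labels, nor whether a cell type came from 1 clone or culture or from several. Each cell type was present on each of 3 nanowell plates, so that a plate and cell type make 1 library, and the 9 libraries are the units of every comparison between cell types.

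DNA replication begins with licensing. In late mitosis and G1 the origin recognition complex, with Cdc6 and Cdt1, loads the MCM helicase ring on DNA. At the start of S phase Cdc45 and the GINS complex join the ring and switch it on, polymerase alpha with primase lays down primers, and the clamp loader RFC places the PCNA ring that holds the replicative polymerases. RPA covers single strands, Fen1 and Lig1 finish lagging-strand fragments, and the supply of nucleotides and histones keeps pace. Transcription of many of these genes is driven by E2F factors around the G1 to S transition. Embryonic stem cells have a short G1 and spend much of their cycle in S phase, with high cyclin E activity.

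The wells of cell types numbered 4610, of which 4413 were kept (1513 control, 1310 deleted, 1590 inhibited) for having at least 1000 genes and under 20% mitochondrial UMIs (unique molecular identifiers, 1 per captured transcript copy). The 9 libraries held between 25914860 and 43773924 UMIs, with a median of 36355 UMIs per kept well. Markers of embryonic stem cells summed to 6342 to 6525 CPM (counts scaled to the library's total) in the control. Their sums were 5252 to 6711 in the deleted and 4678 to 5533 in the inhibited libraries, with none of the 12 at 0. Most of each sum came from Dppa5a, with means of 5515 CPM in control, 5084 in deleted and 4248 in inhibited libraries. Trophectoderm markers summed to 751 to 897 CPM in the control, 968 to 1638 in the deleted and 550 to 899 in the inhibited libraries, mostly from the keratins Krt8 and Krt18, while Elf5 stayed between 0 and 0.045. Primitive endoderm markers summed to 334 to 407 CPM in control, 357 to 513 in deleted and 324 to 381 in inhibited libraries. Sparc made up most of these sums. Fibroblast markers stayed between 2.58 and 18.02 CPM and blood and endothelial markers between 2.71 and 10.4. Kmt2a itself was counted at 50.2, 50.2 and 54.7 CPM in the control plates 1, 2 and 3, at 62.1, 49.9 and 39.2 in the deleted and at 40.6, 43.4 and 46.7 in the inhibited, so that the inhibited libraries lay below the control ones while the deleted libraries overlapped both, and the counts over the whole gene do not check the genotype. The median mitochondrial share was 3.06 to 3.18% in the control, 3.81 to 4.16% in the deleted and 3.24 to 3.48% in the inhibited libraries. On plates 1 and 2 the source wells were A1, B1 and C1 for the control and D1 and D2 for the deleted cells. Those of the inhibited cells were A2, B2 and C2. On plate 3 the same positions were exchanged. There the control had D1 and D2, the deleted cells A2, B2 and C2, and the inhibited cells A1, B1 and C1. Cell types were taken from the labels on every plate, and an exchange of labels was not tested.

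Sequence upstream of these genes is shown because E2F factors bind near the start sites of many replication genes. RefSeq promoters (250 bases before to 50 bases after a start, build GRCm38.p6, the assembly also called mm10) were found for 36 of the 44 genes, in 40 windows, and were searched on both strands for the letters TTTCCCGC, TTTGGCGC, TTTCGCGC and TTTGCCGC, whose matches may overlap. At least 1 of them stood in 12 of the 40 windows (30%), against 744 of 32851 windows of all genes (2.26%). Base composition differs too, with a median GC content of 62.2% in the members' windows and 52.7% in all. Among windows of at least 60% GC the share was 26.1% of 23 for the members and 4.29% of 9690 for all genes. The 12 genes with a match were Mcm3, Mcm5, Mcm6, Mcm7, Orc1, Cdc6, Cdt1, Gins3, Pola1, Pold1, Rfc3 and Lig1. A match is a description of the letters and was not tested as a binding site. The stretches below are from the 6 of these genes that were also higher in wells rich in S phase transcripts (described further on), with the matched letters in capitals, and from Pcna and Ccne1, 2 genes that were higher in the same wells and have no match in their window.
Mcm3, chr1:20820265-20820294, minus strand: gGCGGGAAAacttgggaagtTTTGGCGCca
Mcm5, chr8:75109268-75109387, plus strand: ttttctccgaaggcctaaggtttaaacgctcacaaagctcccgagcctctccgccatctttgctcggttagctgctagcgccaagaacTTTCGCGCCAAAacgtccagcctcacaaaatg
Mcm6, chr1:128359725-128359844, minus strand: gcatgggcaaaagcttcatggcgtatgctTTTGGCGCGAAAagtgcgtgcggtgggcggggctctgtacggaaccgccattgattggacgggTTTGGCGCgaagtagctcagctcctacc
Lig1, chr7:13278841-13278870, plus strand: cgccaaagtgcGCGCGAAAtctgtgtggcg
Cdc6, chr11:98907921-98908040, plus strand: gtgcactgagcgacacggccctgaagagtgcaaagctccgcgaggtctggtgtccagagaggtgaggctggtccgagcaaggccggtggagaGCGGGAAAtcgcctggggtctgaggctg
Pola1, chrX:93632266-93632385, minus strand: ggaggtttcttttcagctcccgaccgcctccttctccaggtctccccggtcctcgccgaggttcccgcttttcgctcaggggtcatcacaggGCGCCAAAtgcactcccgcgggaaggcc
Pcna, chr2:132253181-132253300, minus strand: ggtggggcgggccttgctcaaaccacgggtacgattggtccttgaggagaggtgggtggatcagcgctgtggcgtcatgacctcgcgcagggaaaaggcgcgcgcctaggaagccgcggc
Ccne1, chr7:38107491-38107610, minus strand: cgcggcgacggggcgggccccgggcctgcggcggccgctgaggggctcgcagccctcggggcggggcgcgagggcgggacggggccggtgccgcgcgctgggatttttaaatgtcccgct
In Mcm6 the 3 matches begin 110, 106 and 47 bases before the start site, and in Mcm5 the 2 matches overlap and begin 153 and 149 bases before it. Cdc6 and Pola1 each hold 1 match that begins 138 bases before the start, whereas the matches of Mcm3 and Lig1 lie in the first 50 transcribed bases. Lig1 also has windows at other start sites that hold no match, and Mcm7 likewise has a window without a match.

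Levels are given as CPM after scaling of the libraries and are not corrected for transcript length, so they are compared between libraries and not between genes. In a summed library, fewer cells in S phase and less RNA of a gene per cell cannot be told apart. The 44 genes together made up 4611, 5200 and 4646 CPM in control plates 1, 2 and 3, 4412, 5060 and 4457 in the deleted and 5079, 5391 and 4879 in the inhibited libraries. On every plate the order was the same, deleted lowest and inhibited highest, although plate 2 was the highest plate for each cell type. As log2 differences of these sums, deletion stood at -0.05 ± 0.01 against the control (SD, n = 3 plates), inhibition at 0.09 ± 0.05 against the control and inhibition at 0.14 ± 0.06 against deletion. No test was made on the sums. Without the deepest 5% of wells the difference under deletion was -0.0211 ± 0.04, and with scaling by library totals only that under inhibition was 0.0370 ± 0.04. Over the wells with few trophectoderm marker UMIs (2207 wells, at or below the median share of all kept wells, an alternative chosen after seeing the data) the difference under deletion was 0.04 ± 0.03 and that between inhibition and deletion 0.03 ± 0.09.

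**Figure D1:**
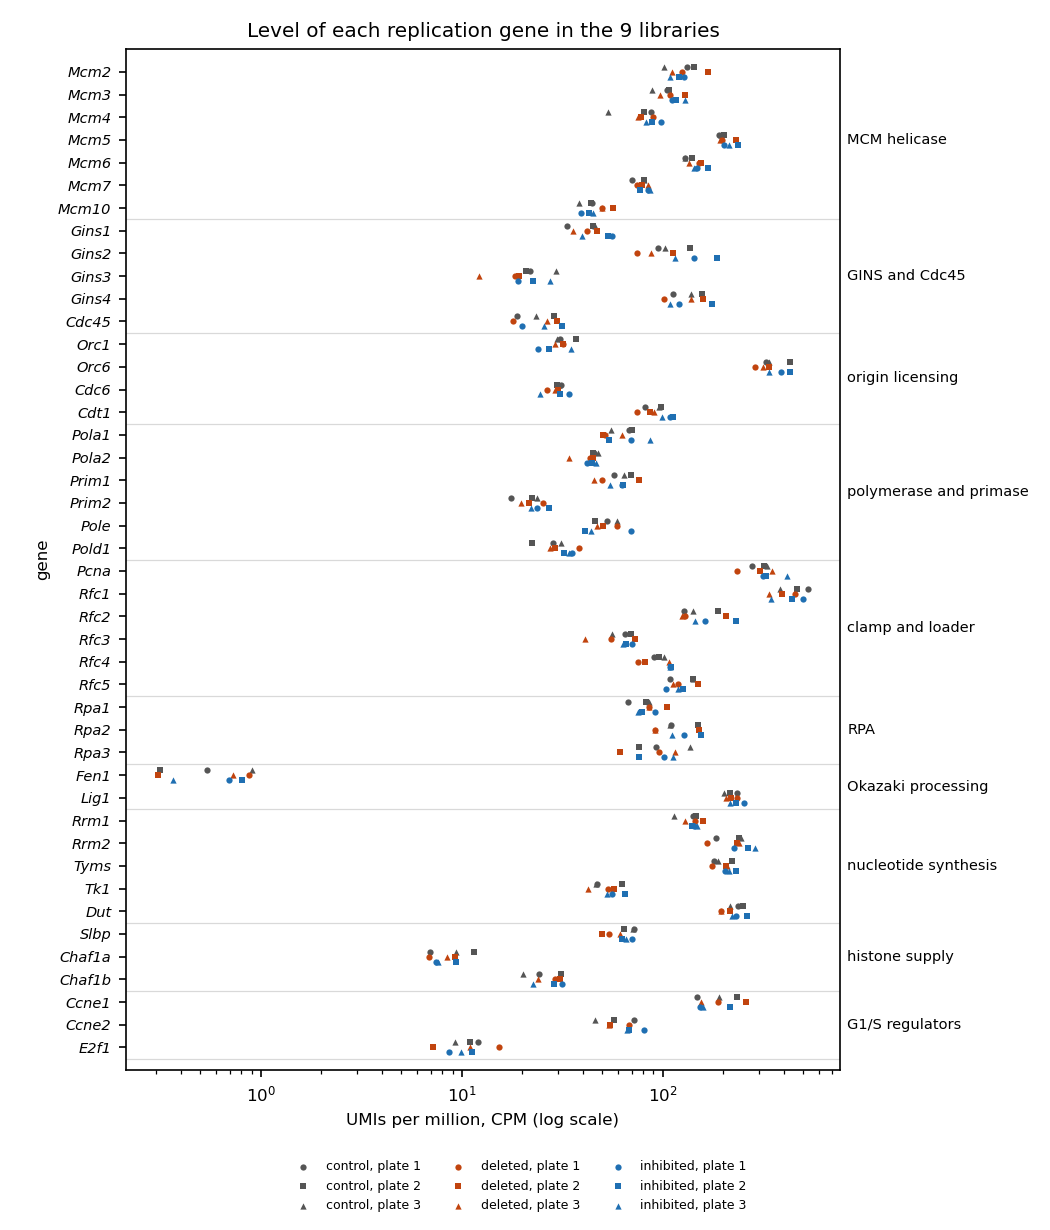
Level of each of the 44 genes in the 9 libraries, in CPM on a log axis, by role. Colours give the cell type and point shapes the plate; within a gene the cell types mostly overlap, and Fen1 lies far below the rest at 0.31 to 0.90 CPM.

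Mll1-/- cells were first compared with the control. None of the 44 genes passed edgeR's quasi-likelihood test at an adjusted p of 0.05 or by DESeq2, where 0.035% of the 17119 genes tested passed edgeR's test in either direction. Of the 44, 19 had differences above 0 and the median was -0.02, against 50% above 0 and a median of 0.00 over all genes. At an unadjusted p of 0.05, 1 was higher (5.11% of all genes) and 6 were lower (5.22% of all genes; 10.3% in either direction). In wells with few trophectoderm marker UMIs 0 of the 44 passed, where 0.00652% of 15333 genes did (1 gene, higher). All 7 MCM genes lay above 0, with a median of 0.15, while all 4 licensing genes (median -0.11) and all 6 clamp and loader genes (median -0.10) lay below 0.

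Cells under Mll1 inhibition were compared with the same control libraries. Again 0 of 44 genes passed edgeR's test, where 0.00584% of all genes passed, and DESeq2 called 1, Gins2, at 0.42 with an adjusted p of 0.013. The share of all genes called by DESeq2 is not given. Differences lay above 0 for 29 of the 44, with a median of 0.10, against 49.9% above 0 and a median of 0.00 over all genes. At an unadjusted p of 0.05, 8 were higher (4.77% of all genes) and 0 were lower (4.23% of all genes). On all 3 plates 17 of the 44 were higher (16.6% of all genes) and 4 were lower (16.3%).

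Inhibited and deleted cells were also compared directly. Gins2, a subunit of the GINS complex, rose in the inhibited cells and was the 1 member to pass edgeR's test, where 0.0935% of all genes passed as higher. DESeq2 called 5 members, all higher (Cdt1, Dut, Gins2, Orc6 and Rrm2), and with wells thinned to equal depth edgeR called Gins2 as higher and Orc1 as lower. The share of all genes called in these 2 settings is not given, so these counts have no baseline. Of 218 further pathway genes, read from the lists below, DESeq2 called 17 higher and 3 lower, again without a baseline. Among them edgeR called 0 higher and 1 lower, where 0.0935% and 0.216% of all genes passed. Of the 44 genes 35 lay above 0, with a median of 0.11, against 49.6% above 0 and a median of 0.00 over all genes. At an unadjusted p of 0.05, 11 were higher (6.98% of all genes) and 1, Mcm10, was lower (6.68% of all genes). In wells with few trophectoderm marker UMIs, 24 of the 44 lay above 0 with a median of 0.03, and 0 passed, where 50.3% of 15333 genes lay above 0 and 0 passed. Trophectoderm markers were lower in the inhibited than in the deleted cells for 6 of 7 tested, and Krt8 (-0.89) and Krt18 (-0.85) fell past the threshold in edgeR's test (adjusted p = 0.032 and 0.018).

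**Figure D2:**
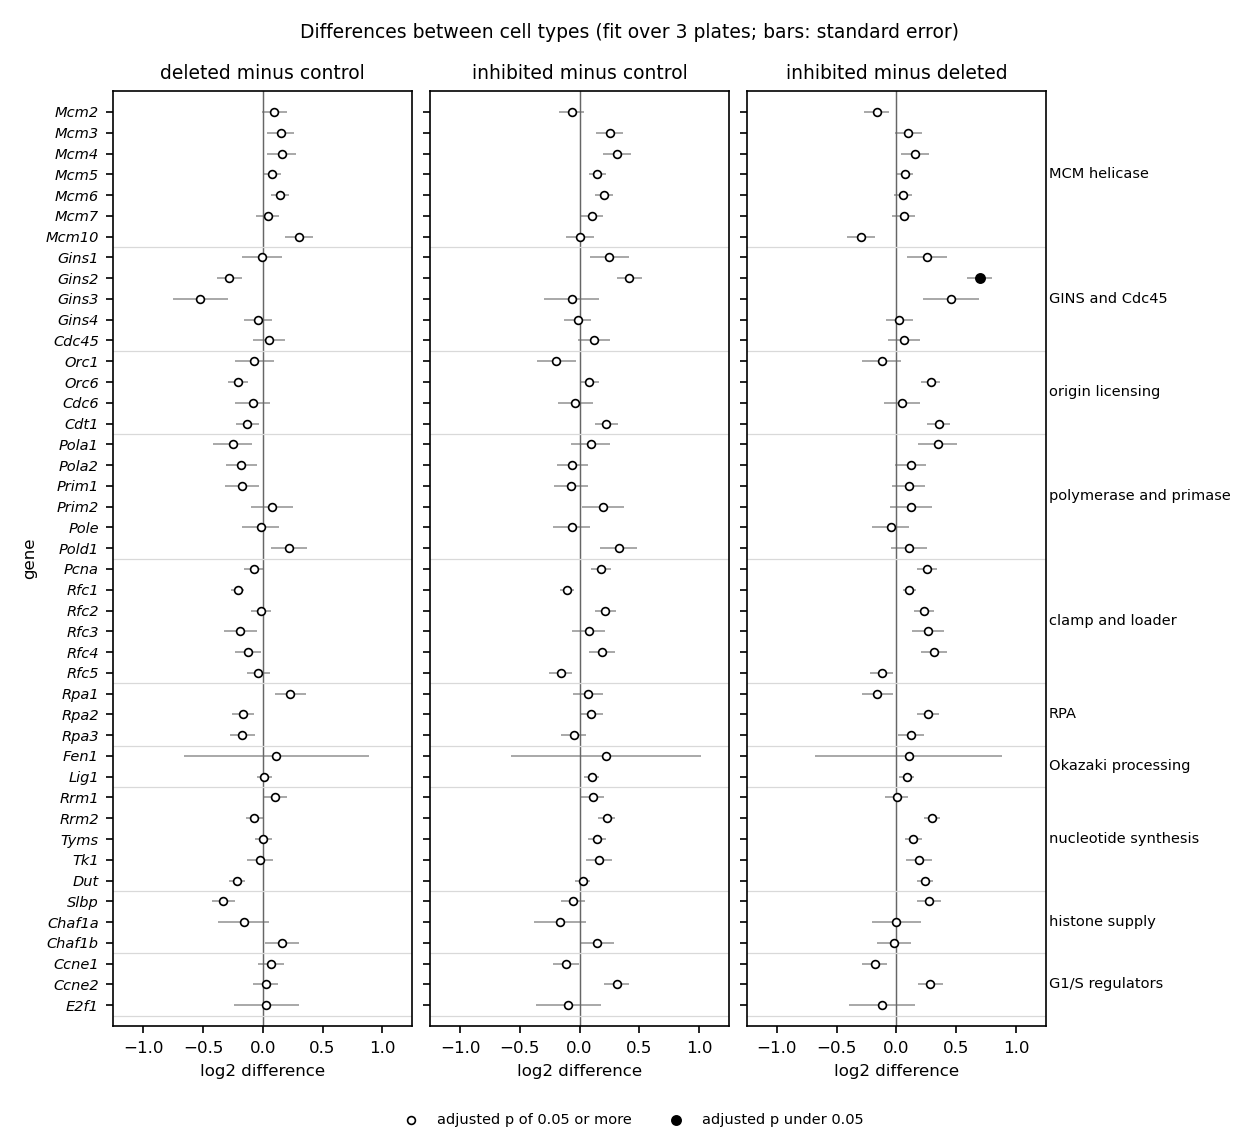
Log2 differences of the 44 genes between cell types, with the standard error from edgeR's fit over 3 plates; filled points have an adjusted p under 0.05. The single filled point is Gins2 at 0.70 in inhibited minus deleted cells, and the MCM genes all lie right of 0 in deleted minus control cells.

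Among the helicase genes, Mcm6, a subunit of the hexameric ring, was counted at 128.6, 140.0 and 129.3 CPM in the control, 150.9, 155.4 and 134.5 in the deleted and 147.8, 167.2 and 143.5 in the inhibited libraries. All 3 inhibited libraries lay above all 3 control libraries, and on each plate the deleted library lay above its control. The log2 differences were 0.15 ± 0.07 (SE) under deletion and 0.20 ± 0.07 under inhibition, with adjusted p of 0.554 and 0.451 in edgeR's test. Mcm4, its neighbour in the ring, was at 87.4, 80.4 and 53.2 CPM in the control, 89.8, 77.6 and 75.6 in the deleted and 98.5, 88.9 and 83.1 in the inhibited libraries. The low value is control plate 3, and the difference under inhibition was 0.31 ± 0.12 (adjusted p = 0.478) but 0.16 without plate 3. The MCM sum differed by 0.12 ± 0.05 (SD, n = 3) under deletion and by 0.14 ± 0.08 under inhibition. Mcm10, a factor that helps to activate the loaded helicase and is named here after its values were seen, was at 44.6, 44.2 and 38.3 CPM in the control, 49.8, 56.8 and 50.1 in the deleted and 39.4, 42.9 and 45.2 in the inhibited libraries. The 3 deleted libraries lay above all others, at 0.30 ± 0.12 against the control (adjusted p = 0.42). Inhibited against deleted cells stood at -0.30 ± 0.12, but at -0.09 with thinned wells and -0.08 without the deepest 5% of wells. Higher without overlap in deletion was 1 of the 44 genes, where 5.44% of all genes were.

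In the GINS complex, which joins the MCM ring with Cdc45 to form the active helicase, Gins2 was counted at 95.2, 136.1 and 102.7 CPM in the control, 74.2, 112.9 and 87.9 in the deleted and 143.7, 187.0 and 115.7 in the inhibited libraries. On each plate the order was deleted, control, inhibited, while plate 2 was high for all 3 cell types. The difference was -0.28 ± 0.10 under deletion (adjusted p = 0.394), 0.41 ± 0.10 under inhibition (0.36) and 0.70 ± 0.11 in inhibited against deleted cells (adjusted p = 0.031, edgeR; higher on 3 of 3 plates). This call was lost without plate 1 (0.55, adjusted p = 0.352), without plate 2 (0.68, 0.442), without the plate as a block (0.70, 0.373) and without the deepest 5% of wells (0.56, 0.0825); in wells with few trophectoderm marker UMIs it stood at 0.50 ± 0.13 (adjusted p = 0.40). Under deletion Gins2 stood at -0.09 without the deepest 5% of wells and -0.15 in wells with few trophectoderm marker UMIs, and under inhibition at 0.25 with thinned wells. Of the exonic bases of Gins2 (mm10, chr8:120578633-120589304, minus strand), 67.3% are shared with Gse1 on the other strand, and the labels do not say whether counting used strand; Gse1 was counted at 0.39 to 2.02 CPM, at 1.65 ± 0.60 in inhibited against deleted cells (adjusted p = 0.257). Reads of the overlapping part can therefore not be assigned to 1 of the 2 genes with certainty.

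Gins3, another subunit of the complex, was at 21.95, 20.9 and 29.6 CPM in the control, 18.5, 19.2 and 12.2 in the deleted and 19.1, 22.7 and 27.4 in the inhibited libraries. The 3 deleted libraries lay below the 3 control libraries, with the widest gap on plate 3, and the difference was -0.52 ± 0.23 (adjusted p = 0.475). It was -0.19 without plate 3, -0.34 with thinned wells and -0.10 in wells with few trophectoderm marker UMIs. The difference of Gins1 was -0.01 under deletion and 0.25 under inhibition, that of Gins4 was -0.04 and -0.02, and that of Cdc45 was 0.05 and 0.12, so that the subunits did not share 1 pattern of values. The 5 genes together differed by -0.13 ± 0.05 (SD, n = 3) under deletion and 0.18 ± 0.24 under inhibition, where plate 3 was at -0.10 and plates 1 and 2 at 0.35 and 0.28.

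**Figure D3:**
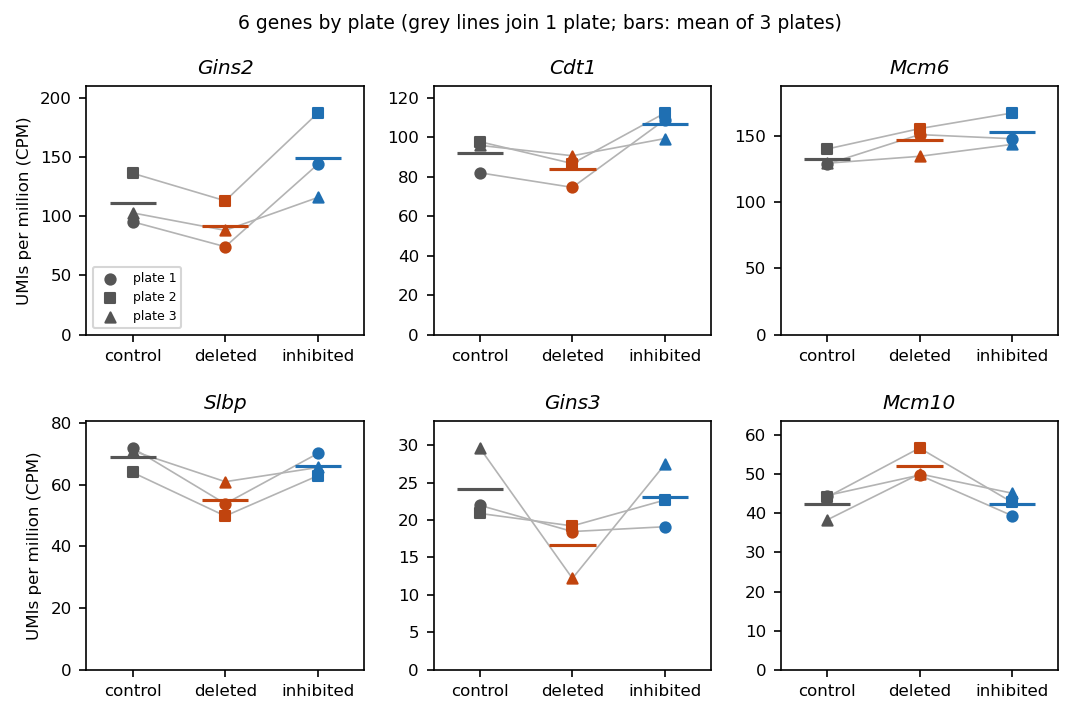
Level in CPM of 6 genes by cell type, with plates as point shapes, grey lines joining a plate and bars at the mean of 3 plates. Gins2 and Cdt1 have the order deleted, control, inhibited on each plate, Slbp and Gins3 are lowest in the deleted cells, and Mcm10 is highest there.

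Among the licensing genes, Orc6, the smallest subunit of the origin recognition complex, was at 326.7, 432.5 and 338.7 CPM in the control, 289.2, 338.9 and 316.9 in the deleted and 390.1, 428.7 and 336.9 in the inhibited libraries. It was lower in the deleted library on each plate, at -0.21 ± 0.08 (adjusted p = 0.409), yet the groups overlapped, and the value was -0.13 with thinned wells and -0.13 without plate 2. Inhibited against deleted cells stood at 0.29 ± 0.08 (adjusted p = 0.163 with edgeR and 0.0244 with DESeq2). Cdt1, which brings the MCM ring to origins, was at 81.9, 97.7 and 95.8 CPM in the control, 74.5, 86.6 and 90.6 in the deleted and 108.8, 112.2 and 99.3 in the inhibited libraries. All 3 inhibited libraries lay above the other 6, at 0.22 ± 0.10 against the control (adjusted p = 0.542) and 0.35 ± 0.10 against the deleted cells (0.163 with edgeR, 0.025 with DESeq2). Against the control Cdt1 stood at 0.04 with thinned wells, 0.10 without the deepest 5% of wells and 0.12 without plate 1, and against the deleted cells at 0.19 in each of the first 2 settings. Higher without overlap under inhibition were 5 of the 44 genes (Mcm3, Mcm6, Cdt1, Pold1 and Rfc4), where 5.02% of all genes were, and 0 were lower (6.23% of all genes). Cdc6, the partner of Cdt1 in loading, was at 31.2, 29.7 and 30.4 CPM in the control, 26.6, 30.2 and 29.2 in the deleted and 34.0, 30.8 and 24.6 in the inhibited libraries, with differences of -0.08 ± 0.15 and -0.04 ± 0.15. Orc1 differed by -0.07 ± 0.16 and -0.20 ± 0.16.

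For the polymerases, Pola1, the catalytic subunit of polymerase alpha, was at 67.7, 70.6 and 55.1 CPM in the control, 51.5, 50.2 and 62.5 in the deleted and 69.3, 54.3 and 86.2 in the inhibited libraries. Plate 3 went the other way from plates 1 and 2 in the deleted cells, and the difference was -0.25 ± 0.16 under deletion (adjusted p = 0.663) and 0.09 ± 0.16 under inhibition. Pold1, the catalytic subunit of polymerase delta, was at 28.4, 22.3 and 31.3 CPM in the control, 38.5, 29.2 and 27.6 in the deleted and 35.5, 32.5 and 34.2 in the inhibited libraries. The inhibited libraries lay above the control ones, at 0.33 ± 0.15 (adjusted p = 0.579). Pola2, Prim1, Prim2 and Pole had differences between -0.18 and 0.08 under deletion and between -0.07 and 0.20 under inhibition. Pola2, named after its values were seen, was the third gene, with Gins3 and Slbp, to lie lower without overlap in the deleted cells (3 of 44; 5.52% of all genes).

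Of the clamp and its loader, Pcna, the sliding clamp, was at 279.2, 320.5 and 330.2 CPM in the control, 233.9, 305.8 and 351.7 in the deleted and 315.3, 327.1 and 414.4 in the inhibited libraries. The inhibited library was the highest on each plate, at 0.18 ± 0.08 against the control (adjusted p = 0.575) and 0.25 ± 0.08 against the deleted cells (0.212), and deletion stood at -0.08 ± 0.08. Against the deleted cells Pcna stood at 0.16 without plate 1 and 0.08 in wells with few trophectoderm marker UMIs. Pcna has a processed copy, Pcna-ps2, counted at 38.3 to 95.6 CPM, so reads could be split between the pair. Rfc1, the large subunit of the loader, was at 526.1, 466.3 and 385.2 CPM in the control, 455.2, 394.5 and 338.7 in the deleted and 501.2, 441.4 and 345.1 in the inhibited libraries. The plates differed in each cell type, and within each plate the deleted library was the lowest, at -0.21 ± 0.06 (adjusted p = 0.267; the smallest unadjusted p of the members under deletion, 0.0043). The value was -0.06 with thinned wells, -0.07 without the deepest 5% of wells and -0.04 in wells with few trophectoderm marker UMIs. Rfc2, a small subunit, was at 128.3, 189.4 and 141.5 CPM in the control, 129.6, 206.5 and 125.1 in the deleted and 161.8, 231.5 and 144.2 in the inhibited libraries. Plate 2 was high in all cell types, and the difference under inhibition was 0.22 ± 0.08 (adjusted p = 0.482), or 0.11 with thinned wells, against -0.01 ± 0.08 under deletion. Rfc3, Rfc4 and Rfc5 lay between -0.19 and -0.04 under deletion and between -0.16 and 0.19 under inhibition.

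RPA, the single-strand binding trimer, showed no common direction. Rpa1, its large subunit, was at 67.6, 82.7 and 85.4 CPM in the control, 85.3, 105.5 and 86.0 in the deleted and 91.7, 79.2 and 75.8 in the inhibited libraries, at 0.23 ± 0.13 under deletion (adjusted p = 0.593) and 0.07 ± 0.13 under inhibition. Rpa2 was at 110.1, 150.4 and 109.2 CPM in the control, 91.6, 151.0 and 91.98 in the deleted and 127.9, 156.0 and 110.7 in the inhibited libraries, at -0.16 ± 0.09 (adjusted p = 0.613) and 0.10 ± 0.09. Rpa3 differed by -0.17 and -0.05. In the maturation of lagging-strand fragments, Lig1, DNA ligase I, was at 233.4, 217.2 and 201.8 CPM in the control, 233.5, 217.7 and 207.1 in the deleted and 252.7, 232.1 and 215.7 in the inhibited libraries. Its differences were 0.01 ± 0.06 and 0.10 ± 0.06 (adjusted p = 0.969 and 0.682). Fen1, the flap endonuclease, had 189 UMIs in all libraries together, and 78.8% of its exonic bases are shared with Gm10143 on the other strand, so its differences of 0.11 ± 0.77 and 0.22 ± 0.79 carry little information at this depth.

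Among the genes of nucleotide synthesis, Rrm2, the regulated subunit of ribonucleotide reductase, was at 185.2, 240.1 and 244.2 CPM in the control, 166.1, 234.3 and 240.1 in the deleted and 225.3, 266.2 and 289.5 in the inhibited libraries. Each inhibited library lay above the control and the deleted library of its plate, at 0.23 ± 0.07 (adjusted p = 0.379) and 0.30 ± 0.07 (0.119 with edgeR, 0.00892 with DESeq2), and the groups overlapped across plates. In wells with few trophectoderm marker UMIs the second value was 0.15. Dut, which removes dUTP and so keeps uracil out of DNA, was at 235.9, 250.5 and 215.7 CPM in the control, 194.1, 216.1 and 194.6 in the deleted and 231.9, 261.5 and 221.4 in the inhibited libraries. The deleted library was the lowest on each plate, at -0.21 ± 0.06 against the control (adjusted p = 0.298), and all inhibited libraries lay above all deleted ones, at 0.24 ± 0.06 (0.154 with edgeR, 0.0292 with DESeq2). In wells with few trophectoderm marker UMIs Dut stood at -0.07 under deletion and 0.13 in inhibited against deleted cells, and the latter was 0.14 without the deepest 5% of wells. Rrm1, Tyms and Tk1 lay between -0.03 and 0.11 under deletion and between 0.11 and 0.16 under inhibition, so that all 5 genes of this role had differences above 0 under inhibition.

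Slbp, which binds the stem-loop at the end of replication histone mRNAs, was at 72.0, 64.0 and 71.0 CPM in the control, 53.9, 49.9 and 61.0 in the deleted and 70.2, 63.0 and 65.6 in the inhibited libraries. The 3 deleted libraries lay below the other 6, at -0.33 ± 0.10 against the control (adjusted p = 0.298), and inhibited against deleted cells stood at 0.27 ± 0.10 (0.257). Higher without overlap in inhibited against deleted cells were 5 of the 44 genes (Gins2, Cdt1, Rfc4, Dut and Slbp), where 5.39% of all genes were, and 1 was lower (Mcm10), where 6.38% were. Chaf1b, a subunit of the histone chaperone CAF-1, was at 24.2, 31.2 and 20.1 CPM in the control, 29.2, 30.8 and 23.9 in the deleted and 31.7, 28.7 and 22.7 in the inhibited libraries, at 0.16 ± 0.14 and 0.15 ± 0.14. For Chaf1a 52.5% of the exonic bases are shared with Ubxn6 on the other strand, and its differences were -0.16 ± 0.22 and -0.16 ± 0.22.

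Of the regulators of S phase entry, Ccne1, cyclin E1, was at 148.8, 234.9 and 190.1 CPM in the control, 189.2, 260.7 and 154.7 in the deleted and 153.8, 217.1 and 158.9 in the inhibited libraries, with differences of 0.07 ± 0.11 and -0.11 ± 0.11 (adjusted p = 0.898 and 0.826). Ccne2, cyclin E2, was at 72.0, 57.6 and 45.8 CPM in the control, 68.3, 54.5 and 54.2 in the deleted and 80.9, 67.8 and 66.4 in the inhibited libraries. It was highest in the inhibited library of each plate, at 0.31 ± 0.11 (adjusted p = 0.426; 0.20 without plate 3), where Ccne1 was lower than its control on 2 of 3 plates. E2f1, a transcription factor that activates many replication genes, was at 12.1, 10.99 and 9.24 CPM in the control, 15.3, 7.23 and 11 in the deleted and 8.67, 11.3 and 9.93 in the inhibited libraries, with differences of 0.03 ± 0.27 and -0.09 ± 0.27 and no common direction over the plates.

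Other genes of the same pathways were read from 8 lists of 222 further genes in all (218 tested). Under deletion 0 of them passed edgeR's test, where 0.035% of all genes passed. At an unadjusted p of 0.05, 4 were higher and 24 lower, where 5.11% and 5.22% of all genes were. DESeq2 called 1 higher and 6 lower. The share of all genes called by DESeq2 is not given for any comparison, so its counts for these lists have no baseline. Of the 218, 75 lay above 0, against 50% of all genes. Replication histones as a class are made in S phase and depend on Slbp for their 3' ends. The list of them was taken by the start of the gene symbols, so this need not hold for each of its genes. The list summed to a difference of -0.25 ± 0.07 (SD, n = 3 plates) under deletion and -0.04 ± 0.08 under inhibition. Hist1h2ap, the member with the smallest p, was at 1571 ± 247 CPM (SD, n = 3) in the control and 1263 ± 170 in the deleted cells, at -0.31 ± 0.05 (adjusted p = 0.085, edgeR), and 21 of 55 tested histone genes lay above 0. This gene made up most of the list, which summed to 2374 ± 377 CPM in the control and 1994 ± 268 in the deleted cells. A link between the histones and Slbp was not tested. S phase genes that are not among the 44 summed to -0.10 ± 0.04 under deletion and 0.05 ± 0.05 under inhibition, with 8 and 15 of 26 above 0. Other origin and fork factors lay above 0 for 7 of 28 under deletion and 11 of 28 under inhibition, the chromatin factors of the fork for 3 and 8 of 11, and E2F, RB and G1/S control genes for 11 and 17 of 26. The remaining nucleotide genes lay above 0 for 9 and 16 of 23, the replication checkpoint genes for 6 and 8 of 13, and the G2 and mitosis genes for 10 and 21 of 36. Under inhibition 0 of 218 passed edgeR's test (13 higher and 7 lower at an unadjusted p of 0.05; 4.77% and 4.23% of all genes), and DESeq2 called 3 higher and 2 lower. In inhibited against deleted cells 1 passed, the histone gene Hist1h2bc, which fell by 0.68 (adjusted p = 0.049, edgeR). There 0.216% of all genes passed as lower, and Hist1h2bc is named after its values were seen. At an unadjusted p of 0.05, 36 were higher and 4 lower (6.98% and 6.68% of all genes), and DESeq2 called 17 higher and 3 lower. Hist1h2bc was also lower in wells rich in S phase transcripts, described next, at -0.66 ± 0.16 (adjusted p = 0.0055, edgeR).

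A further comparison asked which of the 44 genes vary between single wells together with other S phase genes. Each well was thinned to 5869 UMIs (3971 wells deep enough, 442 left out), and in each library the 25% of wells with most UMIs from 26 S phase genes outside the 44 (the high wells) were set against the 25% with fewest (the low wells). Each side held 989 wells, with 28.1 against 9.32 UMIs of those genes per well on average. Each side is a range of a score and not a cell type, and 175 and 169 wells lay at the cut values themselves. In edgeR's test over the 18 sums, with the library as a block, 15 of 41 tested genes were higher in the high wells and 0 were lower, where 4.06% of 6279 genes were called higher, 5.73% lower and 9.79% in either direction. Of the 41, 40 lay above 0 with a median of 0.31, against 52.1% and a median of 0.01 over all genes. Fen1, Chaf1a and E2f1 had too few UMIs to be tested. Other genes moved with the split too. Of 119 tested genes in the further pathway lists 18 were higher and 4 lower, and of the G2 and mitosis genes among them 2 of 34 were higher and 1 lower, with 22 above 0 and a median of 0.10.

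Values follow for the genes that passed. Ccne2 rose by 0.86 ± 0.17 (SE), from a median of 41.2 CPM over the low wells of the 9 libraries (28.5 to 68.0) to 77.1 in the high ones (51.7 to 105.8), and was higher in 9 of 9 libraries. Ccne1 rose by 0.62 ± 0.09, from 158.0 (119.9 to 207.4) to 236.3 (166.1 to 355.9), again in 9 of 9, with the smallest adjusted p of the 44 (4.8e-06). Cdc6 rose by 0.68 ± 0.23 (adjusted p = 0.0475) in 7 of 9 libraries and Mcm10 by 0.69 ± 0.20 in 8 of 9. The call of Cdc6 was lost by DESeq2 (0.69, adjusted p = 0.0853), without the library block (0.66, 0.0848), without the filter on low counts (0.70, 0.0815), with wider ranges of the score (0.50, 0.126) and without plate 1, 2 or 3 (adjusted p = 0.379, 0.169 and 0.0515). That of Mcm10 was lost without plate 1 (0.40, adjusted p = 0.459) or plate 2 (0.65, 0.134). In the helicase Mcm3 (0.48), Mcm5 (0.40) and Mcm6 (0.35) rose, whereas Mcm4 stood at 0.07 ± 0.15. At the fork Pola1 rose by 0.58 ± 0.15, Rpa2 by 0.56 ± 0.13, Gins2 by 0.43 ± 0.11, Lig1 by 0.42 ± 0.08, Pcna by 0.40 ± 0.07 and Rfc1 by 0.34 ± 0.08. Pcna went from a median of 256.1 CPM (197.5 to 363.2) to 352.2 (292.0 to 471.4) and was higher in 9 of 9 libraries. Rrm2 rose by 0.38 ± 0.08 and Orc6 by 0.28 ± 0.07, each in 9 of 9 libraries. The call of Pola1 was lost without plate 1, 2 or 3 (adjusted p = 0.0843, 0.0665 and 0.0611), and that of Gins2 without plate 1 (0.192) and with all UMIs of the same wells (0.22, adjusted p = 0.19). Ccne1, Ccne2, Lig1, Mcm5 and Pcna passed whichever plate was left out. Of the others, Mcm3, Rfc1 and Orc6 were lost without plate 1, Rpa2 and Rrm2 without plate 2, and Mcm6 without plate 1 or plate 3.

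Not all genes of a complex moved with the score. Cdt1 stood at 0.09 ± 0.13 and was higher in 4 of 9 libraries, against the 0.68 of its partner Cdc6. Rfc2 stood at 0.07 ± 0.10, Pola2 at 0.02 ± 0.18 and Pold1 at -0.06 ± 0.21, the 1 gene of the 41 below 0. Such differences between genes were not tested against each other. Genes with an E2F-type match in their promoter window were called in 6 of 12 cases (50%, median 0.37) and those without in 7 of 21 (33.3%, median 0.31). The test of the split against the cell type found 0 of 41 genes past the threshold for deletion or inhibition (edgeR, chosen after seeing the data; 0 and 1 at an unadjusted p of 0.05). Of all 6302 genes tested, 1 passed for deletion and 0 for inhibition, so the count of members was near the share of all genes.

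Trophectoderm markers moved with the same split. All 4 tested lay below 0 in the high wells, and Krt18 (-2.27), Krt8 (-2.17) and Krt7 (-2.10) fell, with 1.49 to 4.36 UMIs of the list per thinned well in the high and 6.16 to 18.3 in the low wells of the 9 libraries. Sparc, the only primitive endoderm marker tested, fell too, at -0.64 ± 0.08 (adjusted p = 1.1e-07, edgeR). All 12 embryonic stem cell markers lay above 0, with a median of 0.32. The wells used next were chosen by trophectoderm markers alone. When the split was made only among wells with trophectoderm marker UMIs at or below their library's median (577 wells on each side, 28.8 against 11.2 UMIs of the S phase list, chosen after seeing the data), 1 of 38 tested genes passed, where 0.131% of 4585 genes were called higher, 0.436% lower and 0.567% in either direction. That gene was Ccne1, and 30 of the 38 lay above 0 with a median of 0.15, against 49.6% of all genes. Mcm6 then stood at 0.46 ± 0.14 (adjusted p = 0.0954), Mcm3 at 0.45 ± 0.15, Gins2 at 0.39 ± 0.14 and Lig1 at 0.31 ± 0.10, while Ccne2 stood at 0.29 ± 0.20 (adjusted p = 0.664), Pola1 at 0.23 ± 0.21, Orc6 at 0.10 ± 0.10, Cdc6 at 0.11 ± 0.30, Mcm5 at 0.10 ± 0.11, Pcna at 0.16 ± 0.09 and Rrm2 at 0.13 ± 0.10. As sequenced, the high wells were also deeper (median 46319 against 34430 UMIs), and the part of depth beyond thinning was not tested. Without plate 1 the count was 7 of 41.

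**Figure D4:**
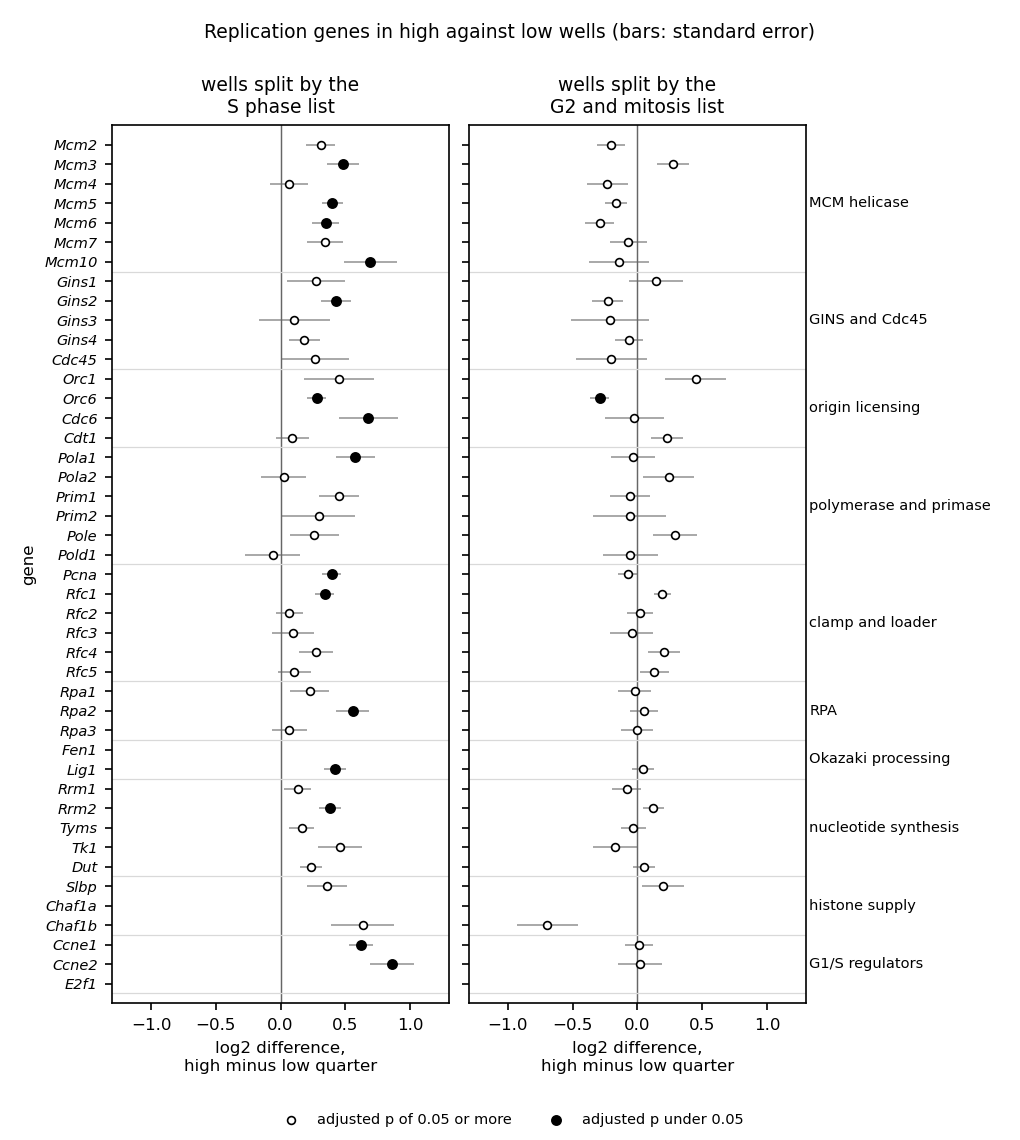
Log2 differences of the 44 genes between high and low wells, 25% at each end,, split by S phase genes outside the 44 (left) or by G2 and mitosis genes (right), with standard errors over 18 sums; filled points have an adjusted p under 0.05, and 3 genes with too few UMIs have no point. On the left 15 points are filled and 40 of 41 lie right of 0; on the right Orc6 alone is filled, left of 0.

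Wells were split in the same way by 36 genes of G2 and mitosis, a score that correlated with the S phase score at 0.05 across wells. There 17 of 41 genes lay above 0, with a median of -0.03, against 48.5% and a median of -0.01 over all genes. Orc6 alone passed edgeR's test and fell by 0.29 on the log2 scale (adjusted p = 0.010), where 1.79% of 6274 genes were called lower, 1.98% higher and 3.76% in either direction. At an unadjusted p of 0.05, 2 of the 41 were higher (6.6% of all genes) and 3 were lower (7.36%). It went from a median of 377.6 CPM (310.7 to 464.7) to 312.4 (226.0 to 400.6) and was lower in 9 of 9 libraries. In wells with few trophectoderm marker UMIs Orc6 stood at -0.39 ± 0.09 and passed again (adjusted p = 0.006), but without plate 1 or plate 2 its adjusted p was 0.105 and 0.104 and with all UMIs of the same wells it stood at -0.07. In that last setting Orc1, Rfc1 and Rrm2 passed instead, all higher, and 28 of 43 genes lay above 0 with a median of 0.06. Of the replication histones 4 of 10 tested fell with the G2 and mitosis score, led by Hist1h2ap at -0.51. Krt8 (-0.89) and Krt18 (-1.24) fell as well, with 2.40 to 6.69 trophectoderm marker UMIs per thinned well in the high and 5.52 to 12.7 in the low wells, and these high wells were deeper as sequenced (median 47375 against 38006 UMIs). Sparc stood at -0.28 ± 0.07 in this split (adjusted p = 0.022, edgeR). Chaf1b (-0.70 ± 0.23), Mcm6 (-0.29 ± 0.11) and, above 0, Mcm3 (0.27 ± 0.12) and Rfc1 (0.19 ± 0.06) did not pass the test (adjusted p between 0.066 and 0.28). The test of this split against the cell type, also chosen after seeing the data, called 0 of 41 members and 0 of 6308 genes. For deletion and inhibition, 4 and 2 members had an unadjusted p under 0.05 in it (edgeR).

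Over single wells the 44 genes together gave a median of 28 UMIs of 5869 per thinned well, from 14 at the 5th to 45.5 at the 95th percentile, with a range of 3 to 95. The variance of this sum was 3.41 times its mean (median of 9 libraries). Gene by gene, the ratio of variance to mean lay above the median of genes of like level for 22 of 43 genes, or 51.2%. It lay above the 90th percentile for 2 genes, Mcm4 (3.01) and Ccne1 (2.88), or 4.65%, where 10% of all genes do by definition. Across wells within a library, the median correlation of the summed 44 genes was 0.26 with the S phase list and 0.02 with the G2 and mitosis list, and that of each role with the other roles was 0.04 to 0.13; these values share depth and the noise of sparse counts and are given as description. No gene outside the 44 reached a correlation of 0.2 with their sum. Wells without cells held 10 UMIs of the 44 genes among 2719 in 15 wells, and wells of control RNA 57 among 20306.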

How the data were processed

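Single wells of a nanowell chip were processed by the authors to gene counts of UMIs, deposited as 1 count table per plate. STAR 2.5.2b, featureCounts and Subread 1.4.6-p1 are named in the submitters' processing notes, with the build mm10. The labels do not state whether counting used strand. Spike-in and reporter columns (90, with 0.646 to 0.752% of UMIs) were left out, and 28682 of 29267 gene identifiers had a symbol.

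Wells with at least 1000 genes and under 20% mitochondrial UMIs were summed per plate and cell type. Doublets were not called. Barcodes shared between plates numbered 436 to 503 per pair. The 9 sums were fitted with edgeR 4.0.16 (R 4.3.3; TMM, filterByExpr, quasi-likelihood F test, Benjamini-Hochberg over 17119 genes, threshold 0.05) with the plate as a block. The labels place the cell types on shared plates; deviations of same-plate libraries correlated at 0.078 to 0.141 and of others at -0.101 to 0.00858. Nothing says that plates held separate cultures, so p-values between cell types measure only how differences within a plate vary between plates. Those of the splits measure only how the difference between high and low wells varies between libraries. Splits of wells used sums of thinned wells with the library as a block, without the genes that defined the split. DESeq2 1.42.0, other scaling, no filter, thinning, other well filters and leaving out each plate were alternatives. Fits were tested on simulated counts without differences between plates. Of changes of 1.5-fold, 46% were recovered under deletion, 42% under inhibition and 53.1% in the S phase split. Of 2-fold changes, 88%, 82% and 89.5% were recovered. Smaller changes were not simulated.

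The members and lists were chosen with earlier results of these data known. In each role the 2 genes with the smallest p against control (1 for lagging-strand processing), with Ccne1, Cdt1, Cdc6, E2f1 and Pcna, were given in full, and up to 3 genes of each further list could be named.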

Additional observations from a re-analysis of the deposited data

How the results depend on the processing

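Over all members tested, the sign of a difference changed in at least 1 alternative for 26 of 44 under deletion and 18 of 44 under inhibition. Sign changes were seen for 23 of 44 between inhibition and deletion, 13 of 41 in the S phase split and 25 of 41 in the G2 and mitosis split. For members with an unadjusted p under 0.05 in the main edgeR fit, 512 values under alternatives kept their direction and side of the threshold. Of the other values of these members, 49 lost and 13 gained the threshold, and 2 reversed. The reversals were Rfc4 (-0.0557) and Dut (-0.0177) in the S phase split among wells with few trophectoderm marker UMIs, an alternative chosen after seeing the data; the cause was not tested. Under deletion 0 genes passed in every alternative run. Under inhibition DESeq2 called 1. Between inhibition and deletion, DESeq2 called 5 as higher (Cdt1, Dut, Gins2, Orc6, Rrm2), thinned wells gave 2 (Gins2 higher, Orc1 lower), and 0 passed without the deepest 5% of wells or among wells with few trophectoderm marker UMIs; leaving out a plate gave 0 to 1. The S phase split gave 1 among wells with few trophectoderm marker UMIs and 7 to 12 when a plate was left out. The G2 and mitosis split gave 3 with wider ranges of the score (Rfc1 higher, Chaf1b and Orc6 lower), 3 with all UMIs (Orc1, Rfc1 and Rrm2, all higher, without Orc6) and 0 to 1 without a plate. The summed level under deletion was -0.0211 without the deepest 5% of wells and 0.0382 among wells with few trophectoderm marker UMIs. Under inhibition it was 0.0370 when scaled by library totals only, and between inhibition and deletion 0.0277 among wells with few trophectoderm marker UMIs. Without the replicate block, 0 genes passed between inhibition and deletion, 10 in the S phase split and 0 in the G2 and mitosis split.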
